A study of Homo sapiens with 6 samples.

Results

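The 10 genes described here handle iron inside the cell: the ferritin chains FTL and FTH1, the ferritin cargo receptor NCOA4, the import genes TFRC, STEAP3 and SLC11A2, the exporter gene SLC40A1, the iron regulatory protein genes ACO1 and IREB2, and the heme oxygenase gene HMOX1. They were found by gene symbol, and all 10 were present among the 17153 genes with a value in each library. The set was chosen by function around FTL, which was selected on its measured level: its transcript was the most abundant in the siOXTR libraries. The levels of these genes in siOXTR against siControl are therefore given as a description, with no test.

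SNU449, an established human hepatocellular carcinoma line, had been transfected for 48 h with an siRNA against the oxytocin receptor gene OXTR (siOXTR, 3 libraries) or with a control siRNA (siControl, 3 libraries). Small interfering RNAs guide the cutting of mRNAs that pair with them. The labels do not say whether the libraries of a group came from separate cultures. The spread between libraries, which the SDs show and the p-values below rest on, may therefore be technical. Values are FPKM, fragments scaled to gene length and to library size.

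Most cells take up iron bound to transferrin through the transferrin receptor, reduce it in the endosome, move it into the cytosol, and store what is not used in ferritin, a hollow shell of light and heavy chains. Iron regulatory proteins bind short RNA hairpins called iron-responsive elements (IREs). A bound hairpin before the coding sequence, as in the ferritin mRNAs, blocks translation, whereas bound hairpins after it, as in the TFRC mRNA, protect the mRNA from decay. When iron is plentiful the proteins let go, so that ferritin is made and the TFRC mRNA is degraded. The liver is a main site of iron storage.

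The hairpins that set these genes apart are shown because they tell the members with an element before the coding sequence from TFRC, which has its elements after it. They were searched for in 1 principal transcript per gene (GENCODE 29) as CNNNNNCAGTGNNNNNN on the transcript strand: an unpaired C, a stem of 5 pairs (A-U, G-C or G-U) and the loop CAGTGN with a last base other than G. Capitals mark the loop, and T stands for U.
FTL: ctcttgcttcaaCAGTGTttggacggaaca
FTH1: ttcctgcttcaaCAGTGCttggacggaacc
SLC40A1: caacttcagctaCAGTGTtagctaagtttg
TFRC at 3400: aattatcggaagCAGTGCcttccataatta
TFRC at 3804: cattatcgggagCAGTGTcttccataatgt
TFRC at 3869: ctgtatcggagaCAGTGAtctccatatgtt
TFRC at 3916: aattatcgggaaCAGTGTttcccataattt

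The numbers after TFRC are the positions of the loop in its transcript, which is 5111 bases long. In GRCh38, the build of the annotation, the FTL hairpin lies in the 5' UTR at chr19:48965335-48965364 on the plus strand. The FTH1 hairpin lies in the 5' UTR at chr11:61967573-61967602 on the minus strand, and that of SLC40A1 in the 5' UTR at chr2:189580660-189580689 on the minus strand. The 4 TFRC hairpins that matched the pattern lie in the 3' UTR on the minus strand, between chr3:196050462-196050491 and chr3:196050978-196051007. The FTL and FTH1 windows were identical at 26 of 30 positions, whereas the SLC40A1 window matched them at 14 and 13.

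Among 11596 tested genes with a transcript to scan, 9 (0.0776%) had the motif in the 5' UTR, FTL, FTH1 and SLC40A1 among them, and 62 (0.535%) had it in the 3' UTR. TFRC was 1 of 2 with 3 or more matches there. NCOA4, STEAP3, SLC11A2, ACO1, IREB2 and HMOX1 had no match to these letters in the transcript scanned. An element in another transcript of a gene, or with a stem or loop outside this pattern, would be missed. No match is therefore not the absence of an IRE, and the counts of matches may be incomplete.

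**Figure D1:**
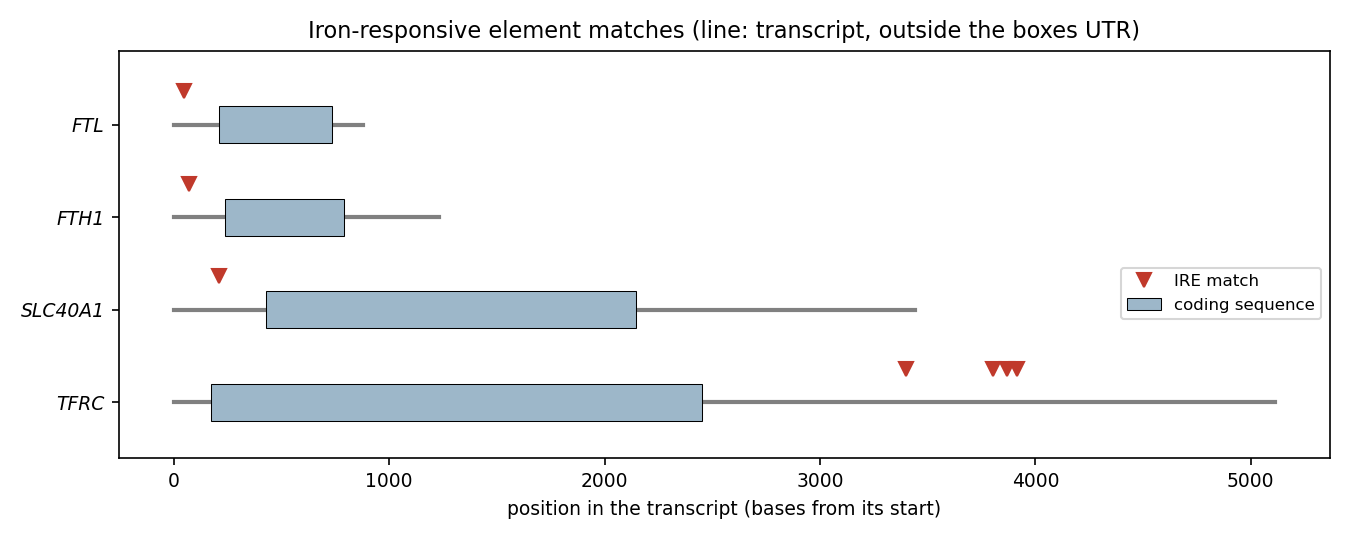
Position of the IRE matches (triangles) along the scanned transcripts of FTL, FTH1, SLC40A1 and TFRC, in bases from the transcript's start. Boxes are coding sequences and lines are whole transcripts. FTL, FTH1 and SLC40A1 have 1 match each before the coding sequence, and TFRC has 4 after it.

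The siRNA target was checked first. OXTR was at 6.03, 6.11 and 6.14 FPKM in the siOXTR libraries, against 26.5, 26.6 and 24.6 FPKM in the siControl libraries (log2 change -1.92, SE 0.04, limma adjusted p = 3.45e-11). FPKM summed to 424168 to 429456 per siOXTR library and to 412464 to 415902 per siControl library, and the read depth is unknown. Hepatocyte markers were near 0 in both groups: the 7 measured summed to 0.98 to 1.18 FPKM in siOXTR and 1.48 to 1.87 FPKM in siControl, with APOB at 0 throughout. The 7 macrophage markers summed to 1.39 to 1.56 FPKM in siOXTR and 2.03 to 2.72 FPKM in siControl, and no measured erythroid or endothelial marker reached 1 FPKM. The epithelial markers summed to 170 to 174 FPKM in siOXTR and 124 to 128 FPKM in siControl, nearly all of it from the keratins KRT8 and KRT18. The other epithelial markers were near 0, with EPCAM at no more than 0.47 FPKM and CDH1 at no more than 0.32 FPKM in any library.

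The ferritin chain transcripts had the highest FPKM of all genes in the siOXTR libraries. FTL (NCBI gene ID 2512), the light chain that promotes mineral formation inside the shell, was at 8421, 7955 and 8135 FPKM in the siOXTR libraries and at 3219, 3152 and 3046 FPKM in the siControl libraries. The groups were far apart, and FTL had rank 1 among all genes in every siOXTR library and rank 4 in every siControl library. The mean was 8171 ± 235 FPKM in siOXTR and 3139 ± 87.0 FPKM in siControl (SD, n = 3 each), a ratio of 2.60 (log2 change 1.38, SE 0.03). Under quantile scaling, which gives genes of the same rank the same value in every library, the log2 change was 0.87. In bulk RNA a transcript raised in all cells and one raised in a part of them cannot be told apart.

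FTH1 (NCBI gene ID 2495), the heavy chain, carries the ferroxidase centre that oxidises incoming iron. It was at 4476, 4407 and 4530 FPKM in the siOXTR libraries and at 1715, 1635 and 1735 FPKM in the siControl libraries. All siOXTR values lay above all siControl values, and the rank of FTH1 among all genes was 2 in every siOXTR library and 12 or 13 in the siControl libraries. The ratio of the means was 2.64 (log2 change 1.40, SE 0.03).

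The chains kept nearly the same proportion. FTL FPKM divided by FTH1 FPKM was 1.88, 1.81 and 1.80 in the siOXTR libraries and 1.88, 1.93 and 1.76 in the siControl libraries, and the groups overlapped. The mean ratio was 1.83 ± 0.0470 in siOXTR and 1.85 ± 0.0887 in siControl (SD, n = 3 each). Together the chains took 2.97% ± 0.0459 of the FPKM sum in siOXTR and 1.17% ± 0.0162 in siControl (SD, n = 3 each). GENCODE 29 names 25 pseudogenes of FTH1 and 16 of FTL, none of which is a row of the files. How reads shared with them were assigned is not given in the sources used here, so the ferritin levels are uncertain to that extent.

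**Figure D2:**
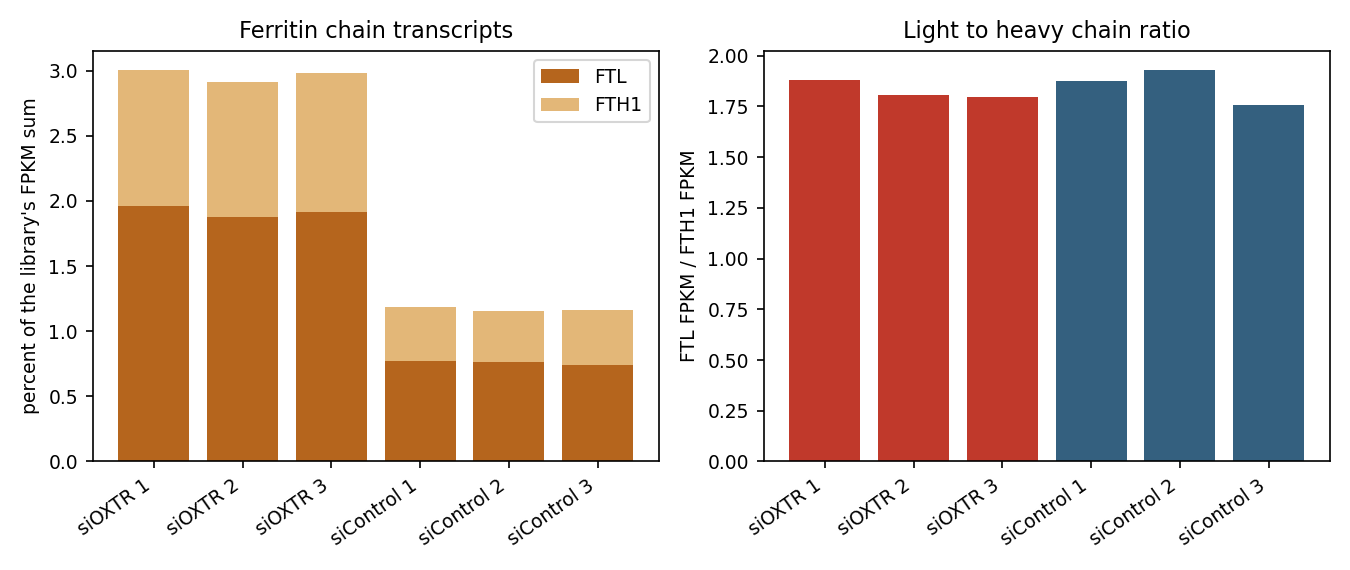
Left, the share of each library's FPKM sum taken by FTL and FTH1, stacked, in percent. Right, FTL FPKM divided by FTH1 FPKM per library. The siOXTR libraries lie between 2.914% and 3.003% and the siControl libraries between 1.16% and 1.19%, while the ratios of the groups overlap.

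NCOA4 (NCBI gene ID 8031) encodes the receptor that carries ferritin to the lysosome, where its iron is released (ferritinophagy). It was at 67.2, 67.0 and 66.9 FPKM in the siOXTR libraries and at 57.3, 60.1 and 60.6 FPKM in the siControl libraries. The groups did not overlap, but the ratio of the means was 1.13 (log2 change 0.17, SE 0.03). NCOA4 thus differed far less between the groups than the ferritin chains it delivers.

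Of the import genes, TFRC (NCBI gene ID 7037), the transferrin receptor, had the largest difference. TFRC was at 22.5, 22.3 and 22.2 FPKM in the siOXTR libraries and at 79.5, 79.9 and 79.4 FPKM in the siControl libraries. The libraries of a group were close together (coefficient of variation 0.509% in siOXTR and 0.273% in siControl), and the groups were far apart. The mean was 3.57-fold lower in siOXTR (log2 change -1.79, SE 0.03), and 1.03% of the genes tested had a lower log2 change. The ferritin chains together amounted to 574, 555 and 569 times the TFRC level in the siOXTR libraries and to 62.1, 59.9 and 60.2 times in the siControl libraries.

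STEAP3 (NCBI gene ID 55240), which reduces iron in the endosome, was at 15.1, 15.1 and 15.6 FPKM in the siOXTR libraries and at 20.7, 21.0 and 20.4 FPKM in the siControl libraries. The groups were separate, and the mean was 1.36-fold lower in siOXTR (log2 change -0.42, SE 0.03). SLC11A2 (NCBI gene ID 4891) encodes DMT1, which moves the reduced iron into the cytosol. It was at 15.08, 15.15 and 14.96 FPKM in the siOXTR libraries and at 15.39, 16.23 and 17 FPKM in the siControl libraries. The lowest siControl value lay just above the highest siOXTR value, and the log2 change was -0.10 (SE 0.04). The import genes thus ranged from a large difference in TFRC to a small one in SLC11A2.

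SLC40A1 (NCBI gene ID 30061) encodes ferroportin, the iron exporter of mammalian cells. It was at 6.06, 6.02 and 6.46 FPKM in the siOXTR libraries and at 14.31, 15.07 and 15.02 FPKM in the siControl libraries. Every siOXTR value was less than every siControl value, and the mean was 2.39-fold lower (log2 change -1.14, SE 0.04). Its hairpin, like those of the ferritin genes, lies before the coding sequence, and its transcript was lower in siOXTR where theirs were higher. Whether the hairpins have a part in these transcript levels was not tested. Macrophages also express much SLC40A1. The labels name only SNU449 cells, and the 7 macrophage markers summed to no more than 2.72 FPKM in any library.

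The genes of both iron regulatory proteins were modestly lower. ACO1 (NCBI gene ID 48) encodes IRP1, which is a cytosolic aconitase when it holds an iron-sulfur cluster. ACO1 was at 26.7, 26.7 and 26.3 FPKM in the siOXTR libraries and at 35.5, 35.6 and 36.1 FPKM in the siControl libraries (log2 change -0.41, SE 0.03). IREB2 (NCBI gene ID 3658) encodes IRP2, which is degraded when iron is plentiful, and was at 13.4, 13.5 and 13.4 FPKM in the siOXTR libraries and at 16.3, 16.2 and 16.3 FPKM in the siControl libraries (log2 change -0.26, SE 0.03). The groups overlapped in neither gene. ACO1 FPKM divided by IREB2 FPKM was 1.98, 1.97 and 1.97 in siOXTR and 2.17, 2.20 and 2.21 in siControl.

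HMOX1 (NCBI gene ID 3162), the inducible enzyme that opens the heme ring and frees its iron, showed the largest difference of the set. It was at 218, 210 and 214 FPKM in the siOXTR libraries and at 24.98, 24.81 and 24.8 FPKM in the siControl libraries. The ratio of the means was 8.61 (log2 change 3.06, SE 0.03), and 12 of the 11655 genes tested had a higher log2 change. The constitutive enzyme gene HMOX2 was at 26.96, 27.32 and 28.01 FPKM in the siOXTR libraries and at 28.89, 30.01 and 26.16 FPKM in the siControl libraries, where the groups overlapped (log2 change -0.04, limma adjusted p = 0.397). HMOX1 FPKM divided by HMOX2 FPKM averaged 7.81 ± 0.243 in siOXTR and 0.880 ± 0.0620 in siControl (SD, n = 3 each).

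**Figure D3:**
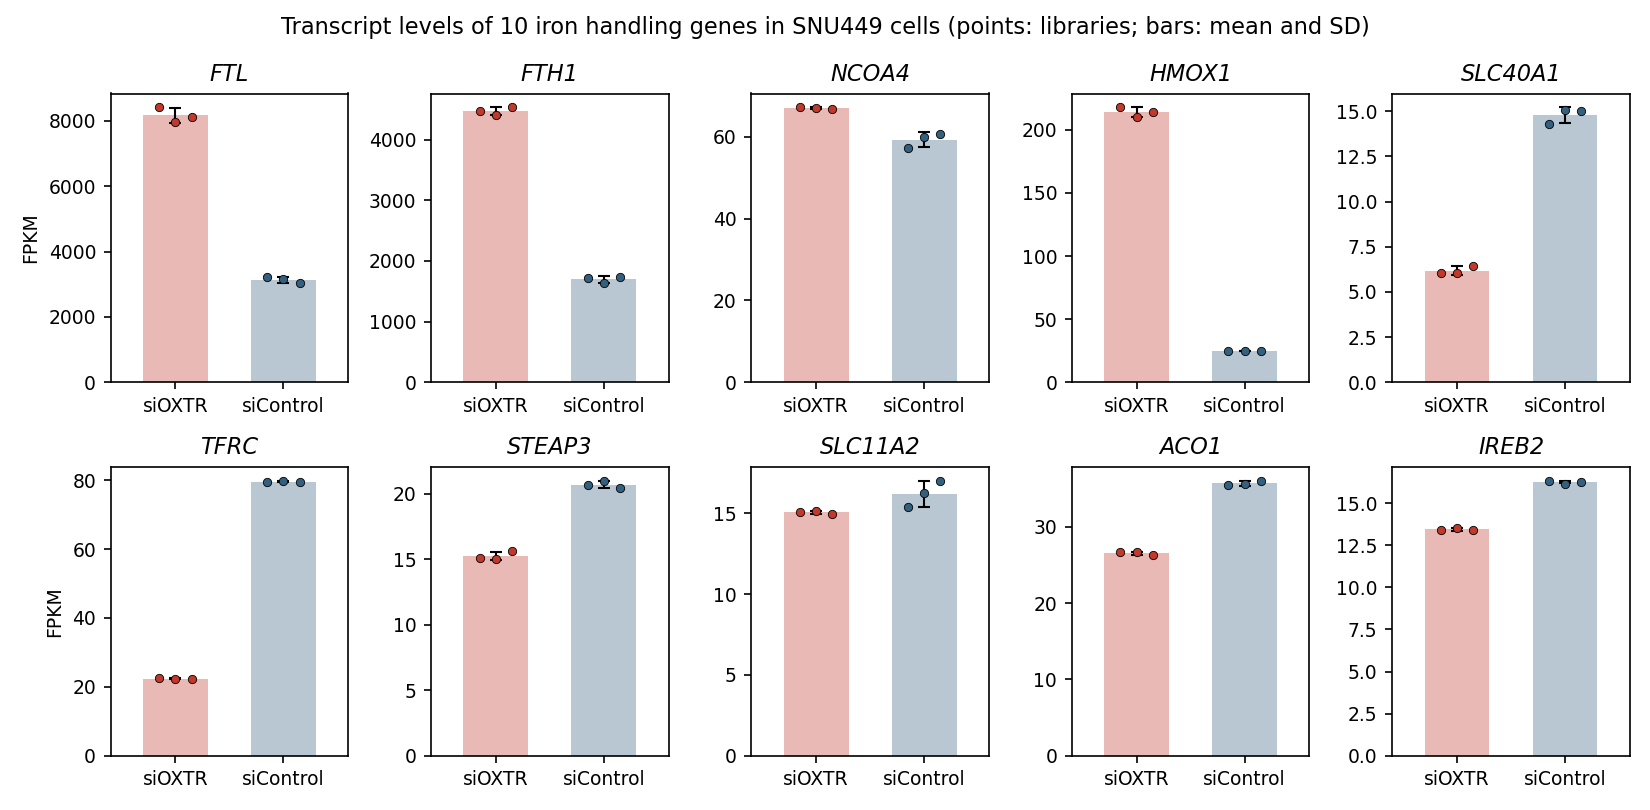
FPKM of the 10 genes in each library (points), with the group mean (bar, from 0) and SD (line), siOXTR left of siControl and a separate scale for each gene. FTL, FTH1, NCOA4 and HMOX1 are higher and the other 6 lower in siOXTR, and no gene's groups overlap.

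Of the 10 genes, 4 were higher and 6 lower in siOXTR. The groups overlapped in none of them. Of the 11655 genes tested, 83.0% had groups that did not overlap, 37.9% with higher and 45.0% with lower values in siOXTR. With the rule for the set built on this contrast, nothing is read from this count. The median log2 change was -0.18 over the 10 genes and -0.06 over all genes tested. In size, 5 of the 10 differed by at least 1 on the log2 scale, as did 11.5% of the genes tested. For the same reason, nothing is read from the medians or from this share.

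**Figure D4:**
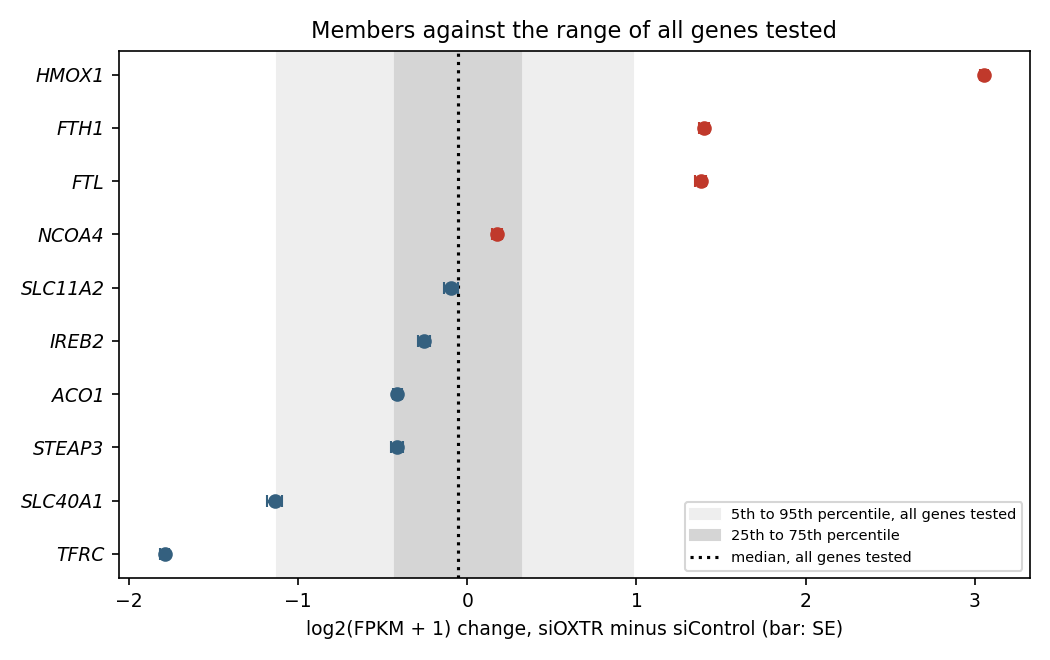
Log2 change (siOXTR minus siControl, on log2(FPKM + 1)) of each of the 10 genes with its SE. Shading gives the 5th to 95th and 25th to 75th percentiles of all genes tested and the dotted line their median of -0.06. HMOX1, FTH1 and FTL lie above the 95th percentile of 0.98, and SLC40A1 and TFRC below the 5th of -1.13.

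FPKM are scaled to gene length, so levels can be ordered across genes. In siOXTR the order of mean FPKM was FTL, FTH1, HMOX1, NCOA4, ACO1, TFRC, STEAP3, SLC11A2, IREB2 and SLC40A1, and in this order STEAP3 and SLC11A2 were neighbours whose libraries overlapped. In siControl it was FTL, FTH1, TFRC, NCOA4, ACO1, HMOX1, STEAP3, IREB2, SLC11A2 and SLC40A1, with an overlap between IREB2 and SLC11A2. HMOX1 had place 3 in siOXTR and place 6 in siControl, and TFRC place 6 in siOXTR and place 3 in siControl.

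Of 672 other tested genes with a mean of at least 100 FPKM, the 5 whose centred log2 profile over the 6 libraries lay nearest to that of FTL were DKK1 (Euclidean distance 0.0666), TCEA1 (0.102), SARS1 (0.108), SDCBP (0.122) and PFDN2 (0.126). FTH1 lay at 0.114. Their log2 changes were between 1.31 (TCEA1) and 1.41 (SDCBP), so the likeness rests mostly on the difference between the groups.

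The wider iron and heme network was described from 10 lists of genes by function, outside the set. Of 102 list genes tested, 46 rose and 38 fell in siOXTR, or 82.4% past the limma threshold (adjusted p under 0.05) against 82.5% of all genes tested, 37.7% higher and 44.8% lower. The list counts include LCN2 and NEO1, which met the 1 FPKM filter through a single group. The median log2 change was 0.01 over the list genes and -0.06 over all genes tested.

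Genes that control HMOX1 and ferritin transcription rose in all 7 cases tested (median log2 change 0.95). NFE2L2, which encodes the oxidative stress factor NRF2, was at 96.1 ± 0.367 FPKM in siOXTR and 61.8 ± 1.05 FPKM in siControl (SD, n = 3 each; log2 change 0.63, limma adjusted p = 2.57e-09). KEAP1, which targets NRF2 for degradation, had a log2 change of 0.73, and BACH1, a heme-sensing repressor of HMOX1, of 0.95. The small MAF genes, whose products pair with both NRF2 and BACH1, had log2 changes of 1.95 (MAFF), 1.66 (MAFK) and 1.32 (MAFG), and the NRF2 relative NFE2L1 of 0.88. Activators, partners and repressors of HMOX1 transcription were thus all higher in siOXTR. BACH2 was under 1 FPKM in every library and was not tested.

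Genes that act on the iron regulatory proteins went both ways, with 3 higher and 3 lower of 7 tested (median log2 change -0.06). FBXL5, the iron-sensing ubiquitin ligase subunit that marks IRP2 for degradation, was at 40.1 ± 1.47 FPKM in siOXTR and 28.2 ± 1.07 FPKM in siControl (SD, n = 3 each; log2 change 0.49, limma adjusted p = 5.02e-07). Its ligase partner SKP1 fell (log2 change -0.42), and CUL1 did not pass the threshold (log2 change -0.06, limma adjusted p = 0.177). Of the genes for delivery of iron-sulfur clusters to cytosolic proteins, CIAO3 (0.53) and CIAO2B (0.11) rose and CIAO1 (-0.14) and CIAO2A (-0.23) fell. CIAO2B missed the threshold under 7 of 15 alternatives, and CIAO1 under median-ratio scaling.

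Of the other transcripts reported to carry IREs or IRE-like elements, 2 rose, 2 fell and 1 did not pass among 5 tested (median log2 change 0.05). EPAS1, the hypoxia factor HIF-2 alpha, rose (log2 change 1.44, limma adjusted p = 1.34e-10), whereas PFN2 (-0.17) and CDC14A (-0.23) fell. PFN2 missed the threshold under median-ratio scaling and CDC14A under quantile scaling. CDC42BPA had a log2 change of 0.05 (limma adjusted p = 0.164).

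Of genes for iron chaperones and ferritin turnover, 4 rose and 1 fell of 5 tested (median log2 change 0.29). The chaperone genes PCBP1 and PCBP2, whose products deliver iron to ferritin, had log2 changes of 0.35 and 0.29. TAX1BP1, an autophagy receptor that takes part in ferritin turnover, was at 78.5 ± 1.84 FPKM in siOXTR and 47.4 ± 0.1002 FPKM in siControl (SD, n = 3 each; log2 change 0.72). The vesicle membrane gene CD63 rose by 0.22, and HERC2, a ligase that degrades NCOA4, fell (log2 change -0.54). The mitochondrial ferritin gene FTMT did not exceed 0.06 FPKM in any library.

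Of 10 other uptake and reduction genes tested, 4 rose and 2 fell (median log2 change -0.01). The metal importer gene SLC39A8 was 3.59-fold lower at 6.63 ± 0.226 FPKM in siOXTR, against 23.8 ± 0.1002 FPKM in siControl (SD, n = 3 each; log2 change -1.70). STEAP1, a relative of STEAP3, had a log2 change of 0.88 and the mitochondrial iron importer gene SLC25A37 of 0.65. LCN2, which binds iron through siderophores, was at 8.98, 10.5 and 9.92 FPKM in siOXTR and at 0.50, 0.67 and 0.67 FPKM in siControl (log2 change 2.74). No fold is given for LCN2 because the siControl values are so low. LCN2 met the 1 FPKM filter through the siOXTR libraries alone, and it was not tested when a siOXTR library was left out. Its place among the 4 that rose thus rests on the group where it was high. The size of its log2 change depended on the pseudocount and was larger with 0.1 and 0.01 than with 1.

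Of export and hepcidin-axis genes, 2 rose and 3 fell of 5 tested (median log2 change -1.03). With a filter at 5 FPKM, 3 passed the threshold. The ferroxidase gene CP, which works with ferroportin, was 3.34-fold lower at 14.2 ± 0.762 FPKM in siOXTR, against 47.5 ± 0.733 FPKM in siControl (SD, n = 3 each; log2 change -1.67). HFE, which acts in iron sensing by the liver, had a log2 change of -1.03, and ERFE, a hormone gene that lowers hepcidin, of 0.48. NEO1, a co-receptor in the same sensing, was at 0.15, 0.15 and 0.17 FPKM in siOXTR and at 1.49, 1.48 and 1.28 FPKM in siControl. It met the 1 FPKM filter through the siControl libraries alone. Its place among the 3 that fell thus rests on the group where it was high. Its log2 change depended on the pseudocount, at -1.06 with 1, -2.56 with 0.1 and -3.10 with 0.01.

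Heme synthesis genes went both ways, with 4 higher and 6 lower of 13 tested (median log2 change -0.02). The pathway enzyme genes CPOX, ALAD and UROS were 2.70-fold, 2.25-fold and 1.88-fold lower in siOXTR, and the mitochondrial transporter gene ABCB10 was 1.79-fold lower. Of 11 genes for heme breakdown and transport, 4 rose and 5 fell (median log2 change -0.05). BLVRB, which reduces biliverdin, had a log2 change of 0.89. The other biliverdin reductase gene, BLVRA, was named after its value was seen. It did not pass the threshold (log2 change -0.05, limma adjusted p = 0.108). The heme exporter gene FLVCR1 (-1.14), the heme-binding PGRMC1 (-1.12) and LRP1, the receptor for heme bound to hemopexin (-1.54), fell.

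Of 27 genes for iron-sulfur cluster assembly, 11 rose and 11 fell (median log2 change -0.01). HSPA9, the mitochondrial chaperone of cluster transfer, was at 346 ± 4.54 FPKM in siOXTR and 141 ± 3.11 FPKM in siControl (SD, n = 3 each; log2 change 1.29). The cluster transfer genes GLRX5 (-0.90), IBA57 (-0.75) and BOLA3 (-0.49) fell. Of 15 genes of ferroptosis, the iron-dependent form of cell death, 7 rose and 6 fell (median log2 change -0.003). The cystine importer genes SLC7A11 and SLC3A2 (log2 changes 2.58 and 2.22) and the glutathione-degrading CHAC1 (2.81) rose, and LPCAT3, which loads polyunsaturated fatty acids into phospholipids, fell (-1.50). GPX4, the peroxidase that guards against this death, was named after its value was seen and had a log2 change of -0.003 (limma adjusted p = 0.941).

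**Figure D5:**
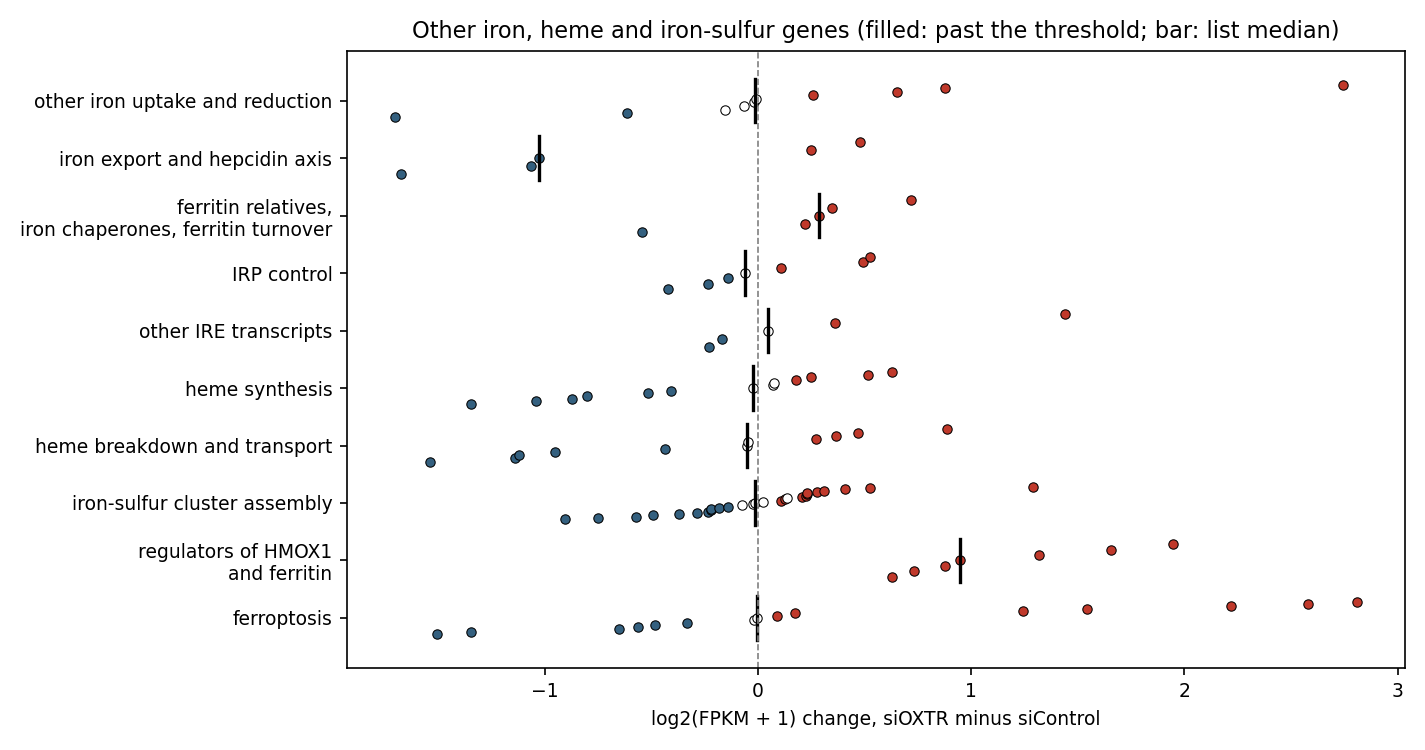
Log2 change (siOXTR minus siControl) of each tested gene of the 10 lists. Filled points passed the limma threshold, open points did not, and the bar is the list's median. IRP is iron regulatory protein. All 7 tested regulators of HMOX1 and ferritin lie above 0, while heme synthesis and iron-sulfur genes spread to both sides.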

How the data were processed

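Total RNA of 6 SNU449 libraries was sequenced by the BGISEQ-500 protocol, per the labels. The deposited values are FPKM per NCBI gene ID, made by the authors and named in the file headers. No source used here names the aligner, counting tool, build or filters. Whole reads were not recovered: in 99 genes of low level, 30.5% of 203 values were within 0.1 of a multiple of the lowest one, where chance gives 20%. Depth is therefore unknown and no count model was used.

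Values were transformed as log2(FPKM + 1). The 11655 genes with at least 1 FPKM in at least 3 libraries were fitted with limma 3.58.1 (R 4.3.3), with group as the factor, a mean-variance trend and Benjamini-Hochberg adjustment over all genes tested (threshold 0.05, two-sided). The fit was tested on simulated data. A log2 change understates the change of low genes. Fold values are ratios of mean FPKM.

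The members and lists were chosen with earlier results of these data known. All members are named, then the 4 list genes with the smallest adjusted p per list, every tested gene of 4 short lists, and the 5 genes nearest to FTL. A gene that this takes is not reported here. Further list genes appear where they are said to be chosen after their values were seen, or beside a member of their family. IREs were read from the longest principal transcript of each gene in GENCODE 29 (GRCh38), and coordinates are from that annotation.

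Alternatives were pseudocounts of 0.1 and 0.01, no filter, a filter at 5 FPKM, quantile, median-ratio and sum scaling, robust moderation, a block for the replicate number, and the omission of each library.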

Additional observations from a re-analysis of the deposited data

How the results depend on the processing

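None of the 10 members changed direction under the pseudocounts, scalings and left-out libraries tried (11 alternatives each). The log2 change ranged from 3.02 to 3.14 for HMOX1, from 0.87 to 1.46 for FTL, from 1.25 to 1.48 for FTH1, from -1.83 to -1.71 for TFRC and from -1.26 to -1.07 for SLC40A1. That of SLC11A2 ranged from -0.14 to -0.02. The low value of FTL came from quantile scaling, which sets the value by rank. With a filter at 5 FPKM, 3 genes of the export and hepcidin axis passed the threshold, because fewer of its genes were tested. CUL1 had a log2 change of 0.0213 under median-ratio scaling, the opposite direction. CDC14A under quantile scaling (limma adjusted p = 0.231) and PFN2 under median-ratio scaling (limma adjusted p = 0.0606) missed the threshold, and CDC42BPA passed it under median-ratio scaling (limma adjusted p = 0.00887), as did CUL1 under sum scaling (limma adjusted p = 0.0298). Median-ratio and sum scaling divide each library by a single factor. Over all genes tested the median log2 change was 0.02 under median-ratio scaling and -0.09 under sum scaling, against -0.06 without scaling. The cause of each gene's change of call was not tested. Without 1 library, between 9113 and 9253 genes and between 82 and 85 list genes passed.

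Libraries with the same replicate number did not deviate together (correlations of -0.01, -0.07 and 0.04). This gave no sign of pairing by number, but with 3 libraries per group it cannot show that there was none. With the replicate number as a block, 9593 genes and 86 list genes passed the threshold, against 9613 and 84 without it. No siOXTR library correlated best with the siControl library of its own number. Seen from the siControl libraries, only replicate 3 correlated best with its own number. Groups of 3 libraries and an unknown depth limit the precision of every value.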
